A study of Mus musculus with 14 samples.

Results

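The cells described here were reporter-negative CD4+ T cells taken from a Th1 culture that contained an inactive control compound, and they were compared with freshly sorted naive CD4+ T cells. The comparison took in every gene of the count table and used 5 of the 14 RNA sequencing libraries of the series, chosen by their labels: 2 of the reporter-negative cells (YFPneg SGC0649) and 3 of naive cells. Both groups came from C57BL/6 mice, whose spleen and peripheral lymph nodes were used and which carry the IFN-g-YFP reporter, in which a yellow fluorescent protein reports the gene of interferon-gamma. Naive cells were sorted by surface markers, CD4+ and CD44- among them, and were not cultured. The YFPneg cells began as enriched CD4+ T cells, which were not sorted as naive. They were polarized for 4 days with anti-CD3, anti-CD28, IL-2, IL-12 and anti-IL4 in 1 µM SGC0649, the inactive control of the DOT1L inhibitor SGC0946, and sorted for absence of YFP. Their YFP-positive counterparts (YFPpos SGC0649, 3 libraries) were used only to test where the reporter-negative cells differed from them. Culture, activation, the Th1 cytokines, the compound, the YFP sort and the difference in starting population all separate YFPneg from naive cells and cannot be told apart here. A culture without a compound was not analysed here.

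Naive CD4+ T cells circulate in a resting state, kept by quiescence factors such as KLF2, FOXO1 and TCF1, and home to lymph nodes through CCR7. Signals through the T cell receptor and CD28 start growth, glycolysis and cell division. IL-12 acting through STAT4, and interferon-gamma, direct dividing cells to the Th1 fate, whose master regulator is T-bet (Tbx21). Interferon-gamma is secreted, so cells that do not make it can still respond to it.

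The question addressed is which transcripts distinguish cultured cells without reporter signal from the resting cells of the same tissues. Gene positions are those of GENCODE M21 on GRCm38. Levels are counts per 1000000 after TMM scaling (CPM), not corrected for gene length, so they are compared between groups and not between genes. Fold changes are given on the log2 scale as YFPneg over naive with a standard error (SE) from edgeR's quasi-likelihood fit. Differences written as YFPneg minus YFPpos are on the same log2 scale, and log2FC stands for the log2 fold change. A gene is called, and said to rise or fall, when its adjusted p was under 0.05 over all 12343 genes tested. Total counts were 16856850 to 18306721 in the naive libraries and 19209573 to 19688884 in the YFPneg libraries. Unmapped reads made up 7.40% to 8.66% of naive and 3.44% to 4.41% of YFPneg libraries, and reads outside annotated genes 11.6% to 11.8% and 8.19% to 8.84%. The part of these library differences in the results was not tested. The 55 gene lists described below hold 1344 genes, of which 1273 were tested, and counts in them are of tested genes unless stated. Among 8824 genes with a mean log2 level of at least 3 over the 5 libraries, the median log2 difference between the 2 YFPneg libraries was 0.136. It was 0.0646 to 0.0722 between pairs of naive libraries. The YFPneg group thus had fewer libraries and a wider spread than the naive group. The design names biological replicates, and nothing else in the labels says that they came from separate animals, so p-values measure the spread between these libraries.

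Both groups carried T cell transcripts. Cd3e, a chain of the T cell receptor complex, stood at 391, 395 and 413 CPM in the naive libraries and at 229.9 and 213 in the YFPneg libraries. Cd4 was counted at 1019, 1045 and 1052 CPM in naive and 524 and 513 in YFPneg cells. Both genes were present in every library, and every YFPneg library was below every naive library, with log2 fold changes of -0.85 (SE 0.08) and -1.004 (SE 0.06). Cd8a, which marks the other main T cell lineage, stayed under 1 CPM in both groups (0.199 and 0.435), and Cd8b1 stood at 17.6 in naive and 7.57 CPM in YFPneg cells. Because these are bulk libraries, fewer cells of a kind and less RNA per cell cannot be told apart for any gene below. Cd44, whose product was selected against in the naive sort, rose from 43.5, 45.0 and 50.7 to 81.8 and 61.6 CPM, a log2 fold change of 0.63 (SE 0.14, adjusted p 9.4e-04), or 0.41 without YFPneg replicate 1. Ifng itself, the reported gene (ENSMUSG00000055170, chromosome 10, 118441046 to 118445892), had 3 counts over the 3 naive libraries and 42.2 and 25.4 CPM in the YFPneg libraries, which is 568-fold higher (95% counting interval 194 to 2759). In YFPpos cells it stood at 671, 611 and 929 CPM, above both YFPneg libraries (YFPneg minus YFPpos -4.45, SE 0.40, adjusted p 1.9e-07). The cells were sorted on the reporter of this gene, so the direction of that difference follows from the sort.

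Of the 12343 genes tested, 4494 (36.4%) were higher and 4024 (32.6%) were lower in YFPneg than in naive cells, 8518 (69%) in all. The median log2 fold change over all tested genes was 0.03. At least 2-fold changes were called for 2328 higher genes (18.9%) and 1445 lower genes (11.7%), and at least 8-fold changes for 1010 and 165. For 9897 genes (80.2%) the 2 YFPneg libraries lay wholly above or wholly below the 3 naive libraries. Counts of list members called against naive cells are to be read beside 36.4% and 32.6%, and a lack of overlap with naive libraries beside 80.2%. Those called against YFPpos cells are to be read beside 21.3% higher and 23.9% lower over all tested genes. The plot of fold change against level shows that differences above 8-fold lay mostly on the higher side. Of the tested genes, called or not, 373 had no count in any naive library and 113 had none in either YFPneg library.

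**Figure D1:**
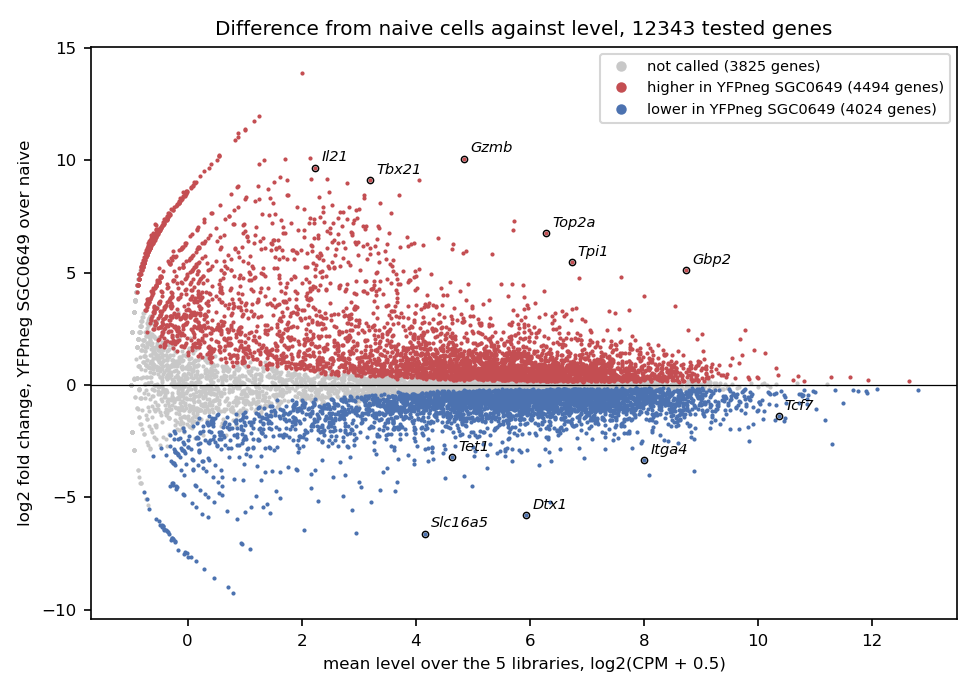
Log2 fold change of YFPneg SGC0649 over naive cells (vertical axis) against the mean level over the 5 libraries as log2(CPM + 0.5) (horizontal axis), 1 point for each of 12343 tested genes. Red points (4494) were higher and blue points (4024) lower at an adjusted p under 0.05, grey points were not called, and circled genes are named in the text.

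The 15 genes with the largest rise, among called genes with a mean level of at least 3 on the log2 scale over the 5 libraries and no overlap between the groups, came mostly from effector and division programmes. Gzmb, the granule protease granzyme B (ENSMUSG00000015437, chromosome 14, 56258838 to 56262260), went from 1.44, 2.80 and 0.567 CPM in naive to 1702 and 1686 in YFPneg libraries (log2FC 10.07, SE 0.19). Il12rb2, the inducible chain of the IL-12 receptor, went from 0.779, 1.87 and 0.680 to 685 and 530.4 CPM (log2FC 9.11, SE 0.20). Tbx21 (ENSMUSG00000001444, chromosome 11, 97098071 to 97115331) had 0.360, 0.561 and 0.510 CPM in naive and 271 and 258 in YFPneg libraries (log2FC 9.10, SE 0.12). All 3 genes were near silent in every naive library and high in both YFPneg libraries. They were followed by Bhlhe40, a repressor that supports cytokine production (log2FC 8.46), the inhibitory receptor Lag3 (log2FC 8.43), the membrane semaphorin Sema7a (log2FC 8.33) and the granule membrane protein Nkg7 (log2FC 7.83). The other 8 belong to cell division: 2810417H13Rik, whose protein binds the replication clamp PCNA, cyclin A2 (Ccna2, 7.64), the proliferation antigen Mki67 (log2FC 7.29), the kinetochore gene Kntc1 (log2FC 7.08), the spindle genes Tpx2 (log2FC 7.08), Kif15 (log2FC 7.05) and Nusap1 (log2FC 6.998), and the mitotic kinase Cdk1 (log2FC 6.95).

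The 15 largest falls under the same limits were of a different kind, and some rarer transcripts below that level fell further. Slc16a5, of the monocarboxylate transporter family (ENSMUSG00000045775, chromosome 11, 115462474 to 115474398), had 102, 93.3 and 92.2 CPM in naive and 1.27 and 0.668 in YFPneg libraries (log2FC -6.62, SE 0.26). Dtx1, a Deltex gene of the Notch pathway (ENSMUSG00000029603, chromosome 5, 120680202 to 120711927), had 305, 307 and 275 CPM in naive and 5.44 and 5.14 in YFPneg libraries (log2FC -5.80, SE 0.21). Rasgrp2, an activator of the small GTPase RAP1 that controls integrins, fell from 811, 830.2 and 816 to 50.2 and 53.2 CPM (log2FC -3.98, SE 0.13). Each of the 3 was well counted in all naive libraries and low in both YFPneg libraries. The rest were Fam101b (log2FC -5.22), the Eyes absent family gene Eya2 (log2FC -5.204), Xkrx (log2FC -4.67), the zinc finger gene Sp6 (log2FC -4.53), the glucocorticoid-activating enzyme Hsd11b1 (log2FC -4.504), the cyclic nucleotide-gated channel Cnga1 (log2FC -4.34), Nav2 (log2FC -4.30), the class II antigen-loading inhibitor H2-Ob (log2FC -4.13), the gamma-glutamyltransferase Ggt5 (log2FC -4.06), the hypoxia factor Epas1 (log2FC -3.88), the mitochondrial leucyl-tRNA synthetase Lars2 (log2FC -3.84) and mt-Co3 (log2FC -4.70). The mitochondrial gene mt-Co3 has near-identical nuclear copies, so its counts are uncertain.

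Among the signals that drive the Th1 fate, cytokine receptor chains were raised for IL-12, IL-18 and IL-2 and lowered for IL-6, IL-7 and TGF-beta. Of 28 receptor chains 16 were higher and 8 lower (median 0.43). Il12rb1, the other IL-12 receptor chain, had 2.10, 1.74 and 3.57 CPM in naive and 187 and 213 in YFPneg libraries (log2FC 6.32, SE 0.14). Il18rap, the accessory chain of the IL-18 receptor, had 1.56, 0.872 and 2.38 CPM in naive and 111 and 73.6 in YFPneg libraries (log2FC 5.82, SE 0.20). These chains were low in all naive libraries, whereas Il18r1, the other IL-18 receptor chain, had 3974 counts over them and also rose (log2FC 1.55). The shared IL-2 and IL-15 receptor chain Il2rb rose (log2FC 3.27), the IL-10 receptor chain Il10ra (log2FC 2.72) and the IL-15 receptor chain Il15ra (log2FC 2.45). In the other direction, Il7r, which receives the survival cytokine IL-7, fell from 809, 737 and 843 to 157 and 107 CPM (log2FC -2.59, SE 0.22). Il6ra, the ligand-binding IL-6 receptor chain, had a log2 fold change of -2.59, its signalling partner Il6st -0.86, and the TGF-beta receptor chain Tgfbr2 -1.65. The 2 chains of the interferon-gamma receptor moved apart. Ifngr1, the binding chain, rose from 125, 135 and 131 to 513 and 421 CPM (log2FC 1.84, SE 0.15). Ifngr2, the signalling chain, fell from 87.1, 86.1 and 87.9 to 26.3 and 32.4 CPM (log2FC -1.57, SE 0.13). Both chains were higher than in YFPpos cells, where Ifngr2 stood at 6.47, 5.69 and 7.27 CPM (YFPneg minus YFPpos 2.18, SE 0.14, adjusted p 3.0e-09). Ifngr1 differed likewise (YFPneg minus YFPpos 0.92, SE 0.15, adjusted p 9.2e-05). Il4ra was close to its naive level (log2FC -0.03, 95% interval -0.17 to 0.11).

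Downstream of these receptors, 11 of 20 JAK, STAT and SOCS genes were higher and 7 lower. Feedback inhibitors that STAT5 induces rose. Socs2 went from 2.34, 3.30 and 3.63 to 98.2 and 112 CPM (log2FC 5.08, SE 0.20) and Cish from 27.0, 34.4 and 34.6 to 264 and 308 (log2FC 3.16, SE 0.10). Socs1, which restrains interferon-gamma signalling, rose (log2FC 2.66, SE 0.11). Stat5a rose (log2FC 1.69), whereas Stat5b stayed near its naive level (log2FC 0.02, 95% interval -0.09 to 0.13). Stat4, which relays IL-12, had 81.3, 90.3 and 82.4 CPM in naive and 55.3 and 47.4 in YFPneg libraries, and the kinase Jak1 fell (log2FC -1.16) against rises of Jak2 (log2FC 1.56) and Jak3 (log2FC 1.38).

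**Figure D2:**
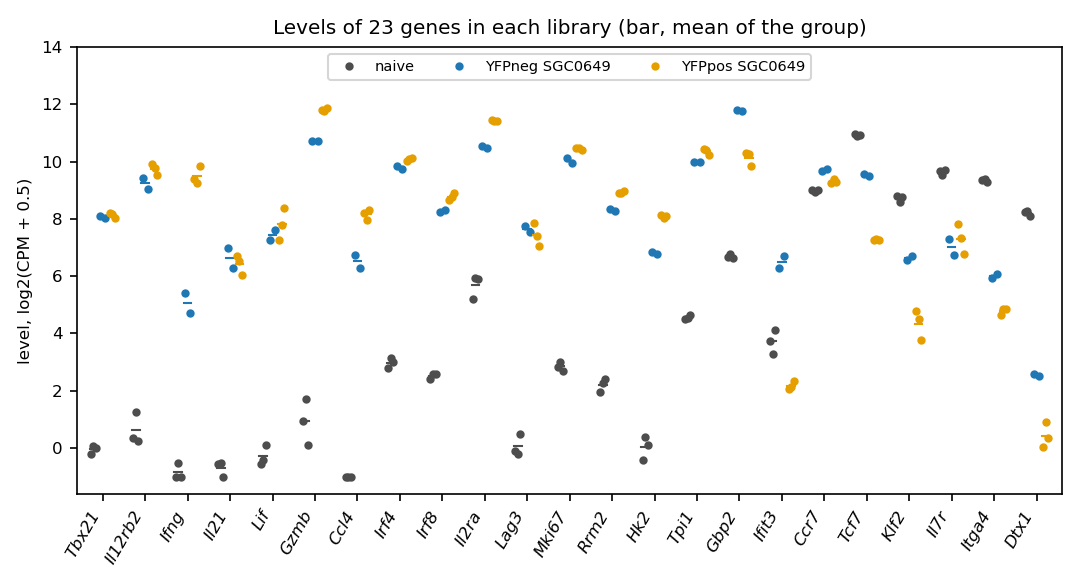
Levels of 23 genes in each library as log2(CPM + 0.5), with dots for the 3 naive (grey), 2 YFPneg SGC0649 (blue) and 3 YFPpos SGC0649 (orange) libraries and a short bar at each group's mean. Effector genes at the left were near 0 CPM in naive cells and high in both cultured sorts, and Ifit3 was highest in YFPneg cells.

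Cytokine transcripts other than Ifng were also gained. Of 25 cytokine genes listed, 19 passed the filter on low counts, which a gene can pass through its high group alone, so the counts are a description: 16 were higher and 1 lower. With a filter of at least 1 CPM in every library of a group 10 were higher. Il21, a cytokine of helper T cells (ENSMUSG00000027718, chromosome 3, 37222759 to 37232636), had 0.180, 0.187 and 0 CPM in naive and 127 and 76.9 in YFPneg libraries (log2FC 9.67, SE 0.41). Lif, of the IL-6 family, had 0.180, 0.249 and 0.567 CPM in naive and 152 and 196 in YFPneg libraries (log2FC 8.99, SE 0.40). Neither was detected above 1 CPM in any naive library. Against YFPpos cells, Il21 (YFPneg minus YFPpos 0.24, adjusted p 0.30) and Lif (YFPneg minus YFPpos -0.43, adjusted p 0.11) were not called. Tnf rose from 20.8 to 75.8 CPM (log2FC 1.87) and Mif (log2FC 2.67, SE 0.08). Il2, the main T cell growth factor, reached only 4.01 and 1.70 CPM. Il10, a regulatory cytokine without a count in naive cells, reached only 1.07 and 0.668 CPM, at least 14.6-fold higher. Il16, a chemoattractant for CD4+ cells, was the exception and fell from 608, 614 and 598 to 247 and 246 CPM (log2FC -1.30, SE 0.09).

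All 10 tested chemokine genes of 15 listed were higher than in naive cells, again a set that low genes enter through the cultured group, and 5 were tested and called with a filter of at least 1 CPM and 6 in a fit of the 5 libraries alone. Ccl4, an inflammatory chemokine, had no count in naive cells and 107 and 77.7 CPM in YFPneg libraries, at least 1548-fold higher. Ccl3, its close relative, had 4 counts in all naive libraries and 55.5 and 40.6 CPM in YFPneg libraries (log2FC 9.13, SE 0.52). Cxcl10, which interferon-gamma induces, rose from 0.195 to 9.29 CPM (log2FC 5.51, SE 0.42) and was the tested chemokine gene called higher than in YFPpos cells (YFPneg minus YFPpos 0.74, SE 0.27, adjusted p 0.033). Among chemokine receptors, Cxcr3, the Th1 homing receptor, had 0.959, 0.748 and 0.794 CPM in naive and 12.7 and 7.91 in YFPneg libraries (log2FC 3.62, SE 0.37), and Ccr4 (log2FC 4.25) and Ccr2 (log2FC 3.83) rose as well.

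Receptors of lymphoid homing were split. Ccr7, which brings naive cells into lymph nodes, rose from 511, 484 and 513 to 819.9 and 845 CPM (log2FC 0.73, SE 0.07), above every naive library. S1pr1, the receptor for egress from lymph nodes, fell from 648, 573 and 591 to 210.3 and 208 CPM (log2FC -1.53, SE 0.12) and stood at 57.9, 48.3 and 38.1 CPM in YFPpos libraries, so that YFPneg cells lay between the other 2 groups. Cxcr4 (log2FC -2.83, SE 0.18) and the gut-homing receptor Ccr9 (log2FC -4.602, SE 0.52) fell further. Of 22 chemokine and lipid homing receptors tested, 12 were higher and 5 lower. Among integrins and adhesion genes 7 of 23 were higher (30.4%) and 11 lower (47.8%), against 36.4% and 32.6% of all tested genes. Itga4, the alpha-4 integrin chain, fell from 649, 664 and 625 to 61.1 and 66.6 CPM (log2FC -3.34, SE 0.10), and Itgb7, its partner in gut homing, (log2FC -1.57, SE 0.12). Slamf7 (log2FC 5.59), Slamf1 (log2FC 2.69) and the adhesion ligand Icam1 (log2FC 2.71) rose. The LFA-1 alpha chain Itgal (log2FC -0.13, 95% interval -0.29 to 0.03) and the selectin ligand Selplg (log2FC 0.06, -0.08 to 0.20) were not called.

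Interferon-inducible genes were higher in YFPneg cells than in both other groups. Of 44 genes, 35 were higher and 4 lower than in naive cells, with a median log2 fold change of 1.28 against 0.03 over all genes. Against YFPpos cells 39 of the 44 were higher and 3 lower, where 21.3% and 23.9% of all tested genes were higher and lower. Of all gene counts the list took 1.38% to 1.43% in the YFPneg libraries. That share was 0.408% to 0.433% for naive libraries and 0.438% to 0.514% for YFPpos libraries. Interferons act on such genes through 2 kinds of promoter element, the interferon-stimulated response element (ISRE) and the gamma-activated site. The ISRE core was searched as a pair of GAAA with any 2 bases between them (GAAA, NN, GAAA) and the gamma-activated site as TTCNNNGAA, on both strands of the 250 bases before each RefSeq start (GRCm38.p6). Of the 44 genes 32 had a RefSeq promoter entry, with 39 promoters. The ISRE core was in 18 of these (46.2%), against 325 of 12044 promoters of tested genes (2.70%), and the gamma-activated site in 12 (30.8%) against 6.04%. A match is a description of letters and not evidence of binding. The sequences below show matches, in capitals on either strand, in genes of the 2 GTPase families and in an antiviral gene. Among the stretches printed, only that of Igtp holds both elements. The promoter of Gbp5, which is not printed, also holds both.
Gbp2 (chr3:142620594-142620623, + strand): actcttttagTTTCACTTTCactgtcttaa
Igtp (chr11:58199501-58199541, + strand): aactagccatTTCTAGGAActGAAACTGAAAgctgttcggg
Ifit3 (chr19:34583363-34583426, + strand): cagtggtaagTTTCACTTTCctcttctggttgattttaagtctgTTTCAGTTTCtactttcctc
Igtp holds a gamma-activated site letter match next to an ISRE core, Gbp2 a single ISRE core and Ifit3 a pair of them. Of the 30 bases shown for Gbp2, 22 lie in GENCODE exons, the marked core among them. The GENCODE gene begins upstream of the RefSeq start used here.

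The guanylate-binding protein and immunity-related GTPase genes, whose products attack vacuoles of intracellular microbes, were raised. Gbp2 (ENSMUSG00000028270, chromosome 3, 142620602 to 142638008) had 102, 109 and 98.8 CPM in naive, 3598 and 3494 in YFPneg and 1251, 1224 and 915 in YFPpos libraries. Its YFPneg libraries were the highest of the 3 groups, with a log2 fold change of 5.10 (SE 0.11, adjusted p 1.3e-16) from naive and 1.65 (SE 0.10, adjusted p 1.3e-09) from YFPpos cells. Gbp5 had 29.3, 31.3 and 31.0 CPM in naive, 823 and 850.2 in YFPneg and 368, 393 and 353 in YFPpos libraries (log2FC from naive 4.78, SE 0.08). Igtp had 216, 223 and 224 CPM in naive, 1168 and 1227 in YFPneg and 563, 572 and 521 in YFPpos libraries (log2FC from naive 2.44, SE 0.07). Iigp1 rose (log2FC 3.21), Gbp3 (log2FC 3.78), Tgtp1 (log2FC 2.05) and Irgm1 (log2FC 1.39). In each of these 7 genes both YFPneg libraries lay above all naive libraries, where 80.2% of all tested genes had no overlap in either direction. They also lay above all YFPpos libraries, a separation for which no share over all tested genes is given here.

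Antiviral genes that type I interferon also induces were divided against naive cells and high against YFPpos cells. Ifit3 (ENSMUSG00000074896, chromosome 19, 34583531 to 34588731) had 12.9, 9.28 and 17.1 CPM in naive, 77.3 and 104 in YFPneg and 3.65, 3.87 and 4.499 in YFPpos libraries. It was higher than in naive cells (log2FC 2.79, SE 0.19, adjusted p 7.5e-10) and than in YFPpos cells (YFPneg minus YFPpos 4.496, SE 0.21, adjusted p 8.0e-11). Isg15, a ubiquitin-like modifier, had 8.51, 8.85 and 12.6 CPM in naive, 29.5 and 38.1 in YFPneg and 5.95, 6.98 and 5.62 in YFPpos libraries (log2FC from naive 1.76, SE 0.16). Irf7, the regulator of type I interferon genes, stood at 97.8, 85.7 and 102 CPM in naive and 92.9 and 113 in YFPneg libraries, ranges that overlap, and was not called (log2FC 0.11, 95% interval -0.16 to 0.38). In YFPpos cells it was at 6.16, 7.17 and 5.75 CPM, below every library of the other groups. Rtp4 (log2 fold change 0.32, adjusted p 0.15, or 0.029 in a fit of the 5 libraries alone) and Oas1a (log2FC 0.09, adjusted p 0.79) were likewise not called against naive cells. The called exceptions to the rise were Ifit2 (log2FC -0.47, SE 0.08), the RNA sensor Ddx58 (log2FC -1.16, SE 0.09), Oasl1 (log2FC -2.20, SE 0.24) and Oas2 (log2FC -0.45, SE 0.16). The adjusted p of Oas2, 0.024, became 0.085 without naive replicate 3, 0.35 without YFPneg replicate 1 (log2FC -0.20, and -0.74 without replicate 2) and 0.053 with scaling by library totals (0.0017 to 0.35 over its alternatives). The membrane protein genes Ifitm1, Ifitm2 and Ifitm3 were the 3 members lower than in YFPpos cells. Ifitm3 had 0.659, 0.374 and 0.567 CPM in naive, 14.7 and 14.8 in YFPneg and 47.1, 41.2 and 51.4 in YFPpos libraries (YFPneg minus YFPpos -1.66, SE 0.18, adjusted p 1.6e-06).

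**Figure D3:**
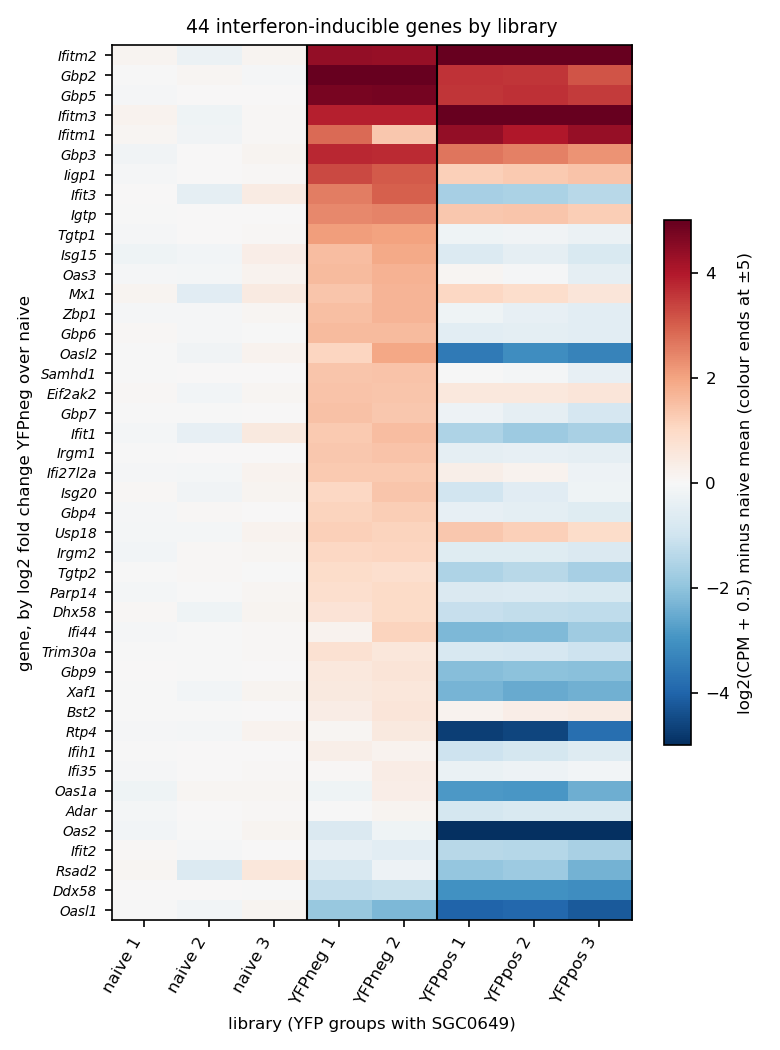
Level of each of 44 interferon-inducible genes (rows, ordered by log2 fold change YFPneg over naive) in 8 libraries (columns), as log2(CPM + 0.5) minus the mean of the naive libraries; red is above and blue below the naive mean, and the colour scale ends at 5 log2 units either way. Most rows are red in both YFPneg columns and paler or blue in the 3 YFPpos columns, and the Ifitm rows are darker red in YFPpos.

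Genes of MHC class I presentation, which interferon also induces, were split. Of 22 genes 14 were higher and 4 lower than in naive cells (median 0.41). Against YFPpos cells 20 were higher and 1 lower, where 21.3% and 23.9% of all tested genes were. Tapbp, the loading chaperone tapasin, rose from 377, 381 and 397 to 677 and 754 CPM (log2FC 0.90, SE 0.07), as did the peptide transporter gene Tap1 (log2FC 0.71) and the immunoproteasome gene Psmb8 (log2FC 0.87). The classical heavy chains fell. H2-K1 had 4249, 4159 and 4345 CPM in naive, 3047 and 3527 in YFPneg and 1495, 1450.2 and 1402 in YFPpos libraries (log2FC from naive -0.37, SE 0.07), and H2-D1 had a log2 fold change of -0.23 (SE 0.07), with an adjusted p of 0.0081 that became 0.10 without YFPneg replicate 1 (0.0016 to 0.10 over its alternatives). H2-Q6 (log2FC -0.68) and H2-Q7 (log2FC -0.48) fell too. These heavy chain genes share long stretches of sequence, so counting of single reads may divide them unevenly. The light chain B2m rose (log2FC 0.35, SE 0.07).

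Receptors that mark recent activation rose in 14 of 16 genes and fell in 2, or in 1 without either YFPneg replicate 1 or replicate 2. Tnfrsf9, the costimulatory receptor 4-1BB, had 6.83, 7.54 and 8.73 CPM in naive and 467 and 418 in YFPneg libraries (log2FC 5.84, SE 0.10). Il2ra, the high-affinity IL-2 receptor chain (ENSMUSG00000026770, chromosome 2, 11642807 to 11693193), had 36.6, 60.1 and 59.1 CPM in naive and 1494 and 1406 in YFPneg libraries (log2FC 4.80, SE 0.16). Tnfrsf4, which encodes OX40, rose (log2FC 4.45, SE 0.11), the transferrin receptor Tfrc (log2FC 3.20, SE 0.09) and Icos (log2FC 2.33, SE 0.07). None of these overlapped between the groups, as held for 80.2% of all tested genes. Il2ra reached 2826, 2748 and 2735 CPM in YFPpos libraries, above both YFPneg libraries (YFPneg minus YFPpos -0.93, SE 0.14, adjusted p 6.2e-05). By contrast Cd274, which encodes PD-L1 and responds to interferon-gamma, was higher in YFPneg (231 and 239 CPM) than in YFPpos libraries (87.0, 86.1 and 106 CPM), and rose from 44.7, 50.03 and 48.6 in naive libraries (log2FC 2.30, SE 0.13). Cd40lg, the helper ligand, fell (log2FC -0.71, SE 0.13) from naive cells.

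Inhibitory receptors rose in 8 of 13 genes and fell in 3. Lag3 had 0.420, 0.374 and 0.907 CPM in naive and 215 and 187 in YFPneg libraries. Ctla4, which competes with CD28 for its ligands, had 14.1, 15.6 and 19.2 CPM in naive and 261 and 240.2 in YFPneg libraries (log2FC 3.94, SE 0.11). Pdcd1, which encodes PD-1, had 3.24, 4.61 and 4.08 CPM in naive and 46.6 and 46.9 in YFPneg libraries (log2FC 3.55, SE 0.12). The 3 receptors did not overlap with naive libraries, like 80.2% of all tested genes. Havcr2, which encodes TIM-3, had 3 counts over the naive libraries and 3.76 and 1.75 CPM in YFPneg libraries, 46.3-fold higher (95% counting interval 15.4 to 228), and reached 36.5, 21.2 and 18.0 CPM in YFPpos libraries. Cd96, a receptor for nectin family ligands, fell from 153, 163 and 154 to 44.0 and 40.6 CPM (log2FC -1.89, SE 0.13) and the collagen receptor Lair1 (log2FC -1.995, SE 0.32). Among TNF family ligands 7 of 11 rose and 0 fell (1, Ltb, fell under 6 of the alternatives), led by Tnfsf4, the OX40 ligand (log2FC 6.78, SE 0.28), and Tnfsf14 (log2FC 4.85, SE 0.22). Ltb, which builds lymphoid tissue, was at 597, 590.2 and 573 CPM in naive and 465 and 563 in YFPneg libraries and was not called (adjusted p 0.056, 0.0064 to 0.60 over its alternatives). It was called lower without YFPneg replicate 2 (adjusted p 0.0064) and with RLE (adjusted p 0.047) or upper-quartile scaling (adjusted p 0.046), DESeq2 (adjusted p 0.038) and limma-voom (adjusted p 0.038).

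Transcription factors that antigen receptor signals induce were higher in 33 of 37 cases and lower in 2 (median 1.06). Irf4, which scales the response to receptor signal strength, had 6.41, 8.35 and 7.54 CPM in naive and 910.2 and 865 in YFPneg libraries. Irf8 had 4.85, 5.48 and 5.50 CPM in naive and 300.1 and 314 in YFPneg libraries. Nr4a3, an immediate early nuclear receptor, had 22.1, 25.1 and 22.9 CPM in naive, 428 and 429 in YFPneg and 222, 269 and 338 in YFPpos libraries (log2FC from naive 4.20, SE 0.16). Each of the 3 was well above every naive library. The AP-1 genes Fosl2 (log2FC 4.49, SE 0.10) and Jun (log2FC 3.07, SE 0.10) rose, as did Egr2 (log2FC 2.62) and Myc (log2FC 1.90, SE 0.07), which drives growth. Batf3 had no count in naive cells and 3.40 and 2.77 CPM in YFPneg libraries, at least 51.9-fold higher. Fos was not called (log2FC 0.32, adjusted p 0.066), though it was called higher without naive replicate 3 (adjusted p 0.048), in a fit of the 5 libraries alone (adjusted p 0.022), with library totals (adjusted p 0.03) and with the 1 CPM filter (adjusted p 0.039; range 0.022 to 0.28 over all alternatives). The NF-kappaB subunit Nfkb2 rose (log2FC 2.43, SE 0.07), Relb (log2FC 1.79, SE 0.07) and the inhibitor Nfkbia (log2FC 0.95, SE 0.06). Nfatc1 rose (log2FC 0.48), while Nfatc3 (log2FC -0.96, SE 0.06) and Irf9 (log2FC -0.52, SE 0.09) fell. A search for the AP-1 letters TGANTCA found them in 2 of 42 promoters of this list (4.76%) and in 4.38% of all promoters.

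Negative regulators of kinase signals were mixed. Of 21 MAP kinase phosphatase, Sprouty and RGS genes 10 were higher (47.6%) and 6 lower (28.6%), against 36.4% and 32.6% of all tested genes. Rgs16, which shortens chemokine receptor signals, rose from 0.599, 0.997 and 0.624 to 114 and 107 CPM (log2FC 7.22, SE 0.20). Dusp4 (log2FC 5.02, SE 0.17) and Spry1 (log2FC 5.61, SE 0.13), both brakes on the ERK pathway, also rose, and Dusp10 (log2FC -1.63, SE 0.13), Rgs14 (log2FC -1.61, SE 0.09) and Dusp7 (log2FC -1.48, SE 0.10) fell.

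The machinery of the T cell receptor itself was lower. Of 26 genes of the receptor complex and its proximal signalling 19 were lower and 5 higher than in naive cells, with a median of -0.64. Prkcq, the kinase PKC-theta, had 541, 533 and 556 CPM in naive and 314 and 285 in YFPneg libraries (log2FC -0.86, SE 0.06). Plcg1, the phospholipase that opens calcium signals, had 639, 683 and 667 CPM in naive and 321 and 318 in YFPneg libraries (log2FC -1.05, SE 0.06). Tespa1, an adaptor of thymocyte selection, had 160.1, 178 and 169 CPM in naive and 21.6 and 24.8 in YFPneg libraries (log2FC -2.86, SE 0.15). In all 3 the YFPneg libraries lay below the naive libraries, where 80.2% of all tested genes had no overlap in either direction. The kinase Zap70 (log2FC 0.04, 95% interval -0.09 to 0.17) had an interval within 0.3 log2 units of the naive level. The costimulatory receptor Cd28 rose from 460.2, 441 and 426 to 803 and 666 CPM (log2FC 0.73, SE 0.09), the adhesion receptor Cd2 (log2FC 0.55, SE 0.07) and the NF-kappaB activator Malt1 (log2FC 0.68, SE 0.10). Among proteins that restrain the receptor 8 of 20 rose and 11 fell. The ubiquitin ligase Cblb rose (log2FC 1.76, SE 0.10) while its relative Cbl fell (log2FC -1.16, SE 0.06), and the adaptor Sla rose (log2FC 1.31, SE 0.07) while Sla2 fell (log2FC -1.13, SE 0.13). Dgka, which ends diacylglycerol signals, fell from 2159, 2176 and 2242 to 726 and 702 CPM (log2FC -1.62, SE 0.08) and Pag1, which anchors the kinase CSK, (log2FC -2.20, SE 0.09). Of 23 calcium entry and ion channel genes 8 were higher and 8 lower, near the shares over all tested genes (36.4% and 32.6%). The plasma membrane calcium pump Atp2b4 rose from 2.88, 2.12 and 3.63 to 267 and 164 CPM (log2FC 6.22, SE 0.24). The channel subunits moved apart, with Orai1 at 0.83 (SE 0.09) and Orai2 at -2.41 (SE 0.09), and the release channel genes Itpr2 (log2FC -2.14, SE 0.10) and Itpr3 (log2FC -1.31, SE 0.09) fell.

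Genes of the naive and quiescent state were lower in 21 of 26 cases and higher in 3. Tcf7, which encodes TCF1 (ENSMUSG00000000782, chromosome 11, 52252371 to 52283014), had 1991, 1892 and 1934 CPM in naive, 749.8 and 719 in YFPneg and 151, 158 and 151 in YFPpos libraries. It was lower than in naive cells (log2FC -1.40, SE 0.08, adjusted p 3.7e-11) and higher than in YFPpos cells (YFPneg minus YFPpos 2.26, SE 0.07, adjusted p 9.9e-13). Klf2, which maintains quiescence and egress, had 443, 384 and 437 CPM in naive, 93.9 and 105 in YFPneg and 26.7, 21.9 and 13.3 in YFPpos libraries (log2FC from naive -2.08, SE 0.18). For both genes the 3 groups lay apart, with YFPneg cells in the middle. Klf3 (log2FC -2.86, SE 0.09), the actin crosslinker Actn1 (log2FC -2.48, SE 0.10), the antiproliferative gene Btg2 (log2FC -1.30, SE 0.07) and Tsc22d3, a glucocorticoid-induced gene (log2FC -3.27, SE 0.22), were among the members that fell. Against YFPpos cells 22 of the 26 were higher and 0 lower, where 21.3% and 23.9% of all tested genes were. The 3 exceptions that rose were Satb1, a chromatin organiser, from 1035, 1026 and 1038 to 1852 and 1645 CPM (log2FC 0.76, SE 0.08), Igfbp4 (log2FC 1.22, SE 0.09) and Bach2, a repressor of effector genes (log2FC 0.49, SE 0.07). The deadenylase subunit Cnot7 (log2FC -0.08, 95% interval -0.21 to 0.05) and Pdlim2 (log2FC 0.02, -0.19 to 0.24) were not called.

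Regulators of effector lineages were higher in 16 and lower in 9 of 30 cases. Hif1a, the oxygen-sensing factor that supports glycolysis, had 146, 143 and 137 CPM in naive and 1801 and 1427 in YFPneg libraries (log2FC 3.51, SE 0.10). Eomes, a T-box factor related to T-bet, had 5.45, 3.99 and 4.48 CPM in naive and 128 and 159 in YFPneg libraries (log2FC 4.95, SE 0.31). Zeb2, which acts with T-bet in terminal effectors, had 0.420, 0.374 and 0.397 CPM in naive and 22.6 and 19.6 in YFPneg libraries (log2FC 5.71, SE 0.22). Eomes and Zeb2 were low in naive cells, whereas Hif1a was already well counted there. Hlx, a homeobox partner of T-bet, had no naive count and 6.35 and 6.32 CPM in YFPneg libraries, at least 106-fold higher. Id2 rose (log2FC 2.12, SE 0.13) and Runx3 (log2FC 0.93, SE 0.07), whereas Runx1 fell (log2FC -0.76, SE 0.11) and the CD4 lineage factor Zbtb7b (log2FC -0.87, SE 0.08). Prdm1, which encodes Blimp-1, was not called (log2FC 0.26, adjusted p 0.44) and was lower than in YFPpos cells (YFPneg minus YFPpos -0.80, SE 0.29, adjusted p 0.032). Tox had 66.8, 70.8 and 64.3 CPM in naive and 24.2 and 26.8 in YFPneg libraries (log2FC -1.40, SE 0.13).

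Defining factors of other helper fates were low or lower. Gata3, the Th2 regulator, fell from 62.8, 57.8 and 66.5 to 35.8 and 25.5 CPM (log2FC -1.02, SE 0.14). Of 12 tested Th2 genes 7 rose and 1 fell, and the Th2 receptor gene Ccr8 rose (log2FC 2.52, SE 0.31). Of these 12, 2 had no naive count and entered the test through cultured groups, so the Th2 count is a description only. Th17 genes rose in 5 and fell in 0 of 11 tested cases, 2 of them without a naive count, and 3 of 14 did not pass the filter. The number higher was 2 without naive replicate 2 or YFPneg replicate 1 and 3 without naive replicate 1, naive replicate 3 or YFPneg replicate 2, and 1 in a fit of the 5 libraries alone or with the 1 CPM filter. Among follicular helper genes 7 of 13 rose and 3 fell. Bcl6, their defining factor, was at 37.6, 39.6 and 38.9 CPM in naive and 32.1 and 22.8 in YFPneg libraries (log2FC -0.50, SE 0.20, adjusted p 0.034), and its call was lost with library totals (adjusted p 0.061), without any 1 naive library and without YFPneg replicate 2, where log2FC was -0.27 and the adjusted p 0.33 (log2FC -0.77 without YFPneg replicate 1, adjusted p 0.0052 to 0.33 over its alternatives). Sh2d1a, which encodes SAP, fell (log2FC -1.55, SE 0.16). Among genes of regulatory T cells 11 of 18 rose and 2 fell, or 1 without YFPneg replicate 1. Foxp3, their defining factor, had 33.7, 57.0 and 59.7 CPM in naive and 28.3 and 32.4 in YFPneg libraries (log2FC -0.72, SE 0.22, adjusted p 0.0085), and its adjusted p was 0.077 without YFPneg replicate 1 (5.3e-04 to 0.077 over its alternatives). Ikzf2, which encodes Helios, fell from 26.5, 49.8 and 45.1 to 2.49 and 4.57 CPM (log2FC -3.52, SE 0.33). The members that rose include Il2ra, Ctla4 and Tnfrsf4, which are also induced in other activated T cells. Whether their rise came from regulatory or from other T cells was not tested.

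Cytotoxic granule genes rose in 13 and fell in 2 of 21 tested cases, a description only, since low granzyme genes entered the test through cultured groups. With a filter of at least 1 CPM 11 were higher, and without YFPneg replicate 1 the number was 8. Cst7, a cathepsin inhibitor of granules, had 5.63, 3.24 and 5.10 CPM in naive and 50.3 and 42.4 in YFPneg libraries (log2FC 3.31, SE 0.18). Srgn, the granule proteoglycan serglycin, had 142, 136 and 141 CPM in naive and 456 and 375 in YFPneg libraries (log2FC 1.58, SE 0.09). Prf1, which encodes perforin, fell from 48.9, 52.3 and 48.1 to 23.2 and 16.6 CPM (log2FC -1.32, SE 0.23). Granzyme B and perforin transcripts thus changed in opposite directions. Gzma stood at 0.839, 0.561 and 1.87 CPM in naive and 5.08 and 1.59 in YFPneg libraries (log2FC 1.59, SE 0.57, adjusted p 0.02), and its call was lost with limma-voom (adjusted p 0.094) and without naive replicate 1 or 2 or YFPneg replicate 1, where log2FC was 0.52 and the adjusted p 0.54 (0.0027 to 0.54 over its alternatives). Lamp1 (log2FC 0.04, 95% interval -0.10 to 0.18), a membrane protein of lysosomes and granules, was not called. Of 15 NK lectin receptors listed 9 were tested, 3 rose and 1 fell, with 0 falling without naive replicate 1 or 3, in a fit of the 5 libraries alone or with the 1 CPM filter, and 2 without YFPneg replicate 1. Klrc1 had 0.360, 0.312 and 0.454 CPM in naive, 16.9 and 4.68 in YFPneg and 86.9, 47.3 and 44.2 in YFPpos libraries (log2FC from naive 4.82, SE 0.66). Klrk1, which encodes NKG2D, had 0.839, 0.1246 and 0.737 CPM in naive, 9.80 and 4.11 in YFPneg and 73.9, 47.7 and 37.6 in YFPpos libraries (log2FC 3.58, SE 0.64). In both receptors the YFPpos libraries were the highest.

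Genes of DNA replication rose without exception, all 42 of 42 (median 2.47). Rrm2, the inducible subunit of ribonucleotide reductase, had 3.36, 4.36 and 4.76 CPM in naive and 324 and 311 in YFPneg libraries (log2FC 6.25, SE 0.09). Cdc6, which loads the replicative helicase, had 0.959, 1.25 and 1.02 CPM in naive and 91.0 and 87.5 in YFPneg libraries (log2FC 6.37, SE 0.12). Uhrf1, which copies DNA methylation, had 4.79, 6.23 and 5.10 CPM in naive and 324 and 341 in YFPneg libraries (log2FC 5.95, SE 0.09). Naive libraries held low levels of all 3. The helicase subunits Mcm2 to Mcm7 had log2FC values from 1.92 (Mcm2) to 3.16 (Mcm5), and naive levels from 41.2 (Mcm5) to 111 CPM (Mcm4). Rpa1, of the single-strand binding complex, had the smallest rise of the 42 (log2FC 0.34, SE 0.06). Against YFPpos cells 0 of the 42 were higher and 30 lower, where 21.3% and 23.9% of all tested genes were.

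Genes of mitosis and the spindle rose in 44 of 46 cases, with a median of 5.76. Top2a, a topoisomerase of dividing cells (ENSMUSG00000020914, chromosome 11, 98992943 to 99024189), had 10.4, 12.6 and 12.0 CPM in naive, 1329 and 1198 in YFPneg and 1608, 1659 and 1655 in YFPpos libraries (log2FC from naive 6.76, SE 0.09). Kif11, the spindle motor Eg5, had 3.24, 2.93 and 3.29 CPM in naive, 316 and 265 in YFPneg and 406, 411 and 413 in YFPpos libraries (log2FC 6.52, SE 0.09). Birc5, which encodes survivin, had 1.38, 1.43 and 1.59 CPM in naive, 109.8 and 107 in YFPneg and 213, 206 and 200.4 in YFPpos libraries (log2FC 6.20, SE 0.09). YFPneg libraries lay far above naive and below YFPpos libraries in these genes. In all, 44 of the 46 were lower than in YFPpos cells, against 23.9% of all tested genes. The exceptions that fell from naive cells were the condensin gene Smc4 (log2FC -0.39, SE 0.08) and the securin gene Pttg1 (log2FC -0.64, SE 0.11). Smc4 stood at 873, 906 and 888 CPM in naive libraries and had a log2FC of -0.24 without YFPneg replicate 2, whereas its condensin partner Smc2 rose from 44.8, 44.2 and 43.8 to 278 and 246 CPM (log2FC 2.57, SE 0.07). Promoters of mitotic genes often hold a CHR element (TTTGAA) and CCAAT boxes, which were searched on both strands. TTTGAA was in 17 of 40 promoters of the list (42.5%), against 10.4% of all promoters, and CCAAT in 30 (75%) against 35.2%. The following stretches, with matches in capitals, show both elements in 2 of the genes above and in the antigen gene Mki67.
Mki67 (chr7:135716462-135716577, - strand): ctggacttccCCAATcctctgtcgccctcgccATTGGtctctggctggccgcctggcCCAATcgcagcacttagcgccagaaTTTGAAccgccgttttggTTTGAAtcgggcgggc
Kif11 (chr19:37376327-37376378, + strand): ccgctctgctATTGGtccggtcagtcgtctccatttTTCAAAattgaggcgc
Top2a (chr11:99024197-99024426, - strand): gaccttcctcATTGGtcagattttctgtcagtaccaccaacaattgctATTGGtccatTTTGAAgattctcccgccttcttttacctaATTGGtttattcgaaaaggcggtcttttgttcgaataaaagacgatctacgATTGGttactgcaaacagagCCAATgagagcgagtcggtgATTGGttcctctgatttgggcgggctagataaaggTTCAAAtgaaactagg
Top2a carries 8 matches in this stretch, Mki67 5 and Kif11 2. For the replication list, the E2F letters TTTGGCGC were in 3 of 40 promoters (7.5%) against 0.805% of all promoters.

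Cyclins, their kinases and inhibitors rose in 26 and fell in 2 of 29 tested cases (median 2.04, or 1.73 with genes without naive counts at their lower bound). E2f8, a repressive E2F factor, had 0.120, 0.374 and 0.624 CPM in naive and 75.4 and 81.6 in YFPneg libraries (log2FC 7.68, SE 0.21). Ccne1, the S-phase cyclin E1, had 6.65, 7.10 and 5.78 CPM in naive and 83.3 and 81.0 in YFPneg libraries (log2FC 3.66, SE 0.08). Cdk6 had 23.7, 29.3 and 24.9 CPM in naive and 209.8 and 213 in YFPneg libraries (log2FC 3.02, SE 0.09). Inhibitors moved in both directions. Cdkn1a, which encodes p21, had 4 counts over the naive libraries and 79.0 and 111 CPM in YFPneg libraries (log2FC 10.12, SE 0.32), and 304, 327 and 403 CPM in YFPpos libraries. Cdkn1b, which encodes p27 and holds resting cells out of the cycle, fell from 384, 387 and 357 to 164 and 154 CPM (log2FC -1.24, SE 0.11). The retinoblastoma gene Rb1 stayed near its naive level (log2FC -0.12, 95% interval -0.28 to 0.04), while its relative Rbl1 rose (log2FC 1.11, SE 0.08) and Rbl2 fell (log2FC -0.91, SE 0.11). Among p53 target genes 14 of 22 rose and 4 fell, with the kinase gene Plk2 (log2FC 5.78, SE 0.29) and Gtse1 (log2FC 4.52, SE 0.11) up and the sestrin Sesn1 (log2FC -1.84, SE 0.09) and Rrm2b (log2FC -1.47, SE 0.12) down.

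**Figure D4:**
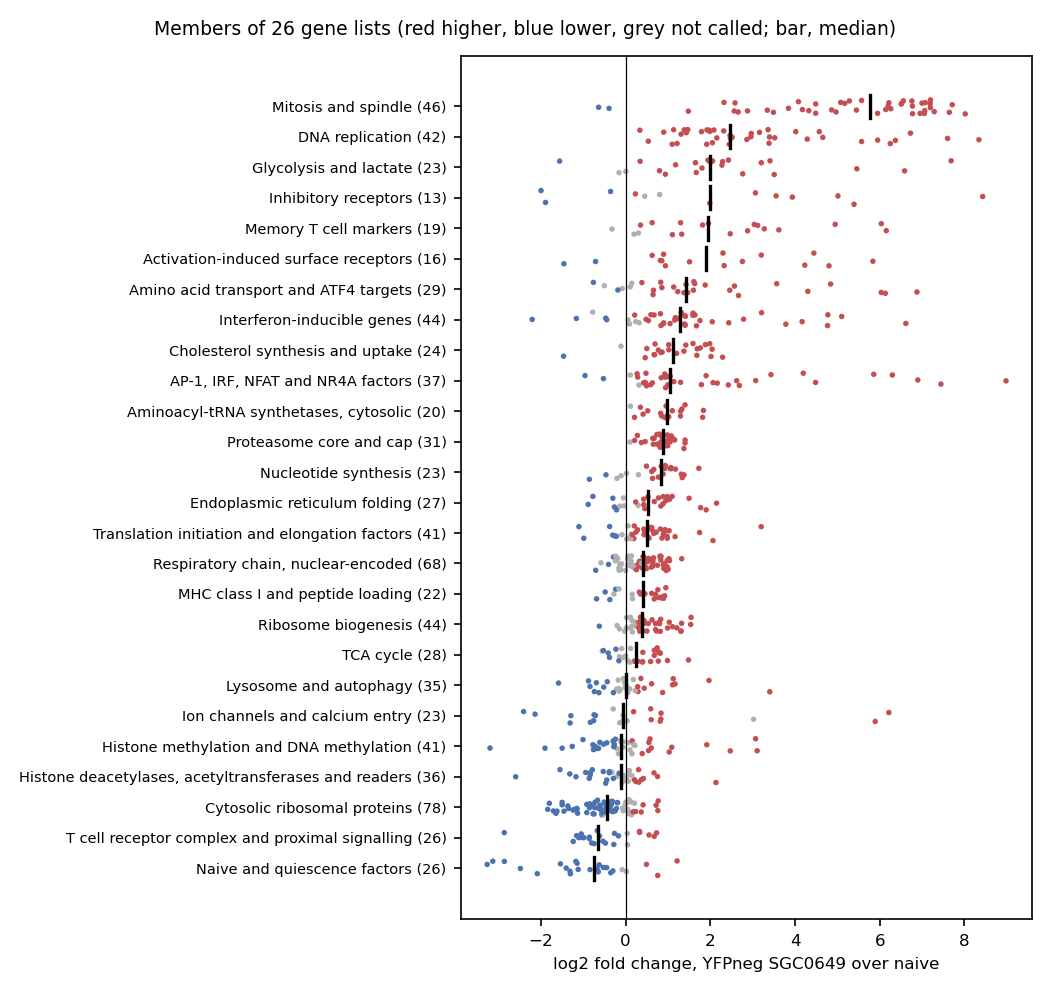
Log2 fold change of YFPneg SGC0649 over naive cells (horizontal axis) for the tested members of 26 gene lists (rows, with the number tested), red where higher, blue where lower and grey where not called, with a bar at each list's median. The median lies furthest to the right for mitosis genes, and to the left of 0 for ribosomal protein, receptor signalling and naive genes.

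Glycolysis genes rose in 20 of 23 cases and fell in 1 (median 2.001). Hk2, the inducible hexokinase, had 0.240, 0.810 and 0.567 CPM in naive and 114 and 109 in YFPneg libraries (log2FC 7.69, SE 0.19). Slc16a3, the lactate exporter MCT4, had 1.92, 1.62 and 2.61 CPM in naive and 202 and 196 in YFPneg libraries (log2FC 6.59, SE 0.18). Tpi1, triosephosphate isomerase, had 22.4, 22.5 and 24.4 CPM in naive and 1015 and 1019 in YFPneg libraries (log2FC 5.46, SE 0.10). Each rose from a low naive level. Ldha (log2FC 2.06, SE 0.07) and the glucose transporter gene Slc2a1 (log2FC 2.29, SE 0.10) followed. Gapdh stood at only 14.98 CPM in naive cells, and its many processed copies make that count uncertain. Pdk1, which keeps pyruvate out of mitochondria, fell from 626, 591 and 619 to 202 and 214 CPM (log2FC -1.56, SE 0.08). Ldhb (log2FC -0.15, adjusted p 0.31) and Pfkm (log2FC 0.01, adjusted p 0.98) were not called.

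Mitochondrial genes encoded in the nucleus rose in part. Of 68 respiratory chain genes 43 rose, 3 fell and 22 were not called (median 0.42). Atp5b, the catalytic chain of ATP synthase, had 612, 638 and 616 CPM in naive and 1164 and 1262 in YFPneg libraries (log2FC 0.96, SE 0.06), and Uqcrfs1, an iron-sulfur subunit of complex III, rose (log2FC 1.02, SE 0.07). Ndufa3 (log2FC -0.70, SE 0.16) and Atp5h (log2FC -0.40, SE 0.10) fell. Of 28 TCA cycle genes 15 rose and 5 fell (3 without naive replicate 2, and 2 without YFPneg replicate 1 or with library totals), with the aspartate aminotransferase Got2 (log2FC 1.49, SE 0.09) and fumarase (Fh1, 0.82, SE 0.08) higher and the pyruvate dehydrogenase chain Pdha1 (log2FC -0.52, SE 0.06) lower. Several members held their level within 0.3 log2 units, among them Dlst (log2FC 0.00, 95% interval -0.14 to 0.14), Idh3g (log2FC -0.05, -0.18 to 0.08) and the complex I gene Ndufa10 (log2FC 0.07, -0.08 to 0.22).

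Lipid and building-block synthesis was higher. Of 24 cholesterol synthesis and uptake genes 22 rose and 1 fell (median 1.11). Cyp51, a demethylase of the pathway, rose from 53.6, 51.1 and 57.3 to 302 and 227 CPM (log2FC 2.29, SE 0.10). The exception was the sterol reductase Tm7sf2 (log2FC -1.46, SE 0.18). Fatty acid genes were split. Scd2, a desaturase, rose from 81.3, 92.8 and 80.4 to 894 and 826 CPM (log2FC 3.34, SE 0.14), the elongase Elovl6 (log2FC 2.12, SE 0.11) and fatty acid synthase (Fasn) (log2FC 1.32, SE 0.08). Cpt1a, which admits fatty acids to mitochondria for oxidation, fell from 143, 116 and 112 to 59.5 and 54.6 CPM (log2FC -1.11, SE 0.10), as did Acadm (log2FC -0.69, SE 0.11) and the acetyl-CoA synthetase Acss2 (log2FC -2.13, SE 0.18), while Acadl rose (log2FC 1.49, SE 0.11). In this list 13 of 23 rose and 7 fell.

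Amino acid supply rose in 23 and fell in 2 of 29 cases, or in 1 without naive replicate 2 or either YFPneg replicate, in a fit of the 5 libraries alone, with library totals, without a filter and with the 1 CPM filter. Slc7a5, the large neutral amino acid carrier, had 36.9, 35.0 and 36.4 CPM in naive and 178 and 219 in YFPneg libraries (log2FC 2.46, SE 0.10). Psat1, of serine synthesis, had 31.2, 32.6 and 34.9 CPM in naive and 191 and 200.3 in YFPneg libraries (log2FC 2.57, SE 0.08). Shmt1, of one-carbon metabolism, had 7.19, 7.41 and 6.52 CPM in naive and 79.8 and 87.4 in YFPneg libraries (log2FC 3.57, SE 0.13). The groups did not overlap in any of them, nor in 80.2% of all tested genes. Ddit4, an inhibitor of the growth kinase mTORC1, fell (log2FC -0.76, SE 0.17). The glutamine carrier Slc1a5 stayed near its naive level (log2FC -0.08, 95% interval -0.23 to 0.08). Cytosolic aminoacyl-tRNA synthetases rose in 19 of 20 cases and fell in none, with Farsa not called (adjusted p 0.39). Wars, which interferon-gamma also induces, rose from 57.8, 56.9 and 57.8 to 196 and 216 CPM (log2FC 1.84, SE 0.07) and was the synthetase called higher than in YFPpos cells (YFPneg minus YFPpos 0.44, SE 0.07, adjusted p 1.2e-04). Nucleotide synthesis genes rose in 17 of 23 cases, such as Umps of the pyrimidine pathway (log2FC 1.73, SE 0.10) and Hprt of purine salvage (log2FC 1.18, SE 0.07). The exceptions were Impdh1 (log2FC -0.85, SE 0.09) and Prps2 (log2FC -0.46, SE 0.08), whose isoforms Impdh2 (log2FC 0.77, SE 0.14) and Prps1 (log2FC 1.07, SE 0.10) rose.

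The translation apparatus split between assembly factors and structural proteins. Of 44 ribosome biogenesis genes 30 rose and 1 fell (median 0.39). Ncl, the nucleolar protein nucleolin, had 641, 645 and 629 CPM in naive and 1866 and 1861 in YFPneg libraries (log2FC 1.55, SE 0.10), and Nolc1 rose (log2FC 1.30, SE 0.10). Of 78 cytosolic ribosomal protein genes 53 fell and 7 rose (median -0.45). Rps24 had 754, 769 and 807 CPM in naive, 293 and 311 in YFPneg and 437, 447 and 440.0 in YFPpos libraries (log2FC from naive -1.36, SE 0.09). Rps15a had 683, 689 and 694 CPM in naive, 212 and 211 in YFPneg and 456, 411 and 414 in YFPpos libraries (log2FC -1.70, SE 0.10). Rplp2 had 438, 478 and 495 CPM in naive, 131 and 170.3 in YFPneg and 317, 286 and 307 in YFPpos libraries (log2FC -1.64, SE 0.11). In these genes the YFPneg libraries were the lowest of the 3 groups. The members were unequal, with Rpl4 (log2FC 0.02, 95% interval -0.08 to 0.12) and Rpl7 (log2FC 0.05, -0.06 to 0.16) near their naive level and Rps2 higher (log2FC 0.72, SE 0.07). Ribosomal protein genes have many processed copies in the genome, so single genes are uncertain, and 21.5% to 22.2% of reads mapped to more than 1 place in the libraries of both groups. The list took 2.80% to 2.94% of gene counts in naive and 2.17% to 2.36% in YFPneg libraries. An E-box (CACGTG), the motif of Myc, was in 3 of 45 promoters of the biogenesis list (6.67%) and in 8.26% of all promoters.

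Translation factors rose in 29 and fell in 6 of 41 cases. Eif4ebp1, a repressor of cap-dependent initiation, had 2.52, 4.36 and 4.03 CPM in naive and 31.2 and 35.8 in YFPneg libraries (log2FC 3.20, SE 0.20). Eif5a rose from 272, 283 and 271 to 1113 and 1191 CPM (log2FC 2.06, SE 0.07). Isoforms diverged here too: Eif4ebp2 fell (log2FC -0.99, SE 0.09) and the helicase Eif4a2 (log2FC -1.10, SE 0.07), while Eif4a1 was not called (log2FC 0.13, adjusted p 0.15, or 0.023 in a fit of the 5 libraries alone and 0.035 with library totals). Eef1a1, among the most abundant transcripts, moved only from 6195, 6025 and 6139 to 7080.1 and 6608 CPM (log2FC 0.16, SE 0.07, adjusted p 0.046), and its call was lost without any 1 naive library or without YFPneg replicate 1, where the adjusted p was 0.29 (0.0069 to 0.29 over its alternatives). It was also lost with RLE (adjusted p 0.071) or upper-quartile scaling (adjusted p 0.11) and with DESeq2 (adjusted p 0.055).

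Among genes of protein quality control, the proteasome, folding and chaperone lists leaned higher to different degrees, and the lysosome and autophagy list did not. Core and cap proteasome genes rose in 30 of 31 cases and fell in none (median 0.87), with Psma3 not called (adjusted p 0.31). Psmb2 had 55.9, 50.8 and 54.4 CPM in naive and 139 and 146 in YFPneg libraries (log2FC 1.41, SE 0.08). Psmd1 had 79.2, 81.7 and 84.0 CPM in naive and 215 and 209 in YFPneg libraries (log2FC 1.38, SE 0.07). The 2 YFPneg libraries were above the naive libraries in both genes, where 80.2% of all tested genes had no overlap in either direction. Endoplasmic reticulum folding genes rose in 18 and fell in 5 of 27 cases. Xbp1, a factor of the unfolded protein response, rose from 49.1, 54.9 and 53.2 to 204 and 189 CPM (log2FC 1.90, SE 0.08), and the co-chaperones Dnajb9 (log2FC -0.77, SE 0.14) and Dnajc3 (log2FC -0.88, SE 0.07) fell. Heat shock proteins and chaperonins rose in 16 and fell in 4 of 27 cases, with Hsp90aa1 (log2FC 1.44, SE 0.07) and the chaperonin chain Tcp1 (log2FC 1.07, SE 0.06) higher and Hsph1 (log2FC -0.98, SE 0.12) and Dnajb1 (log2FC -0.60, SE 0.09) lower. Of 35 lysosome and autophagy genes 11 were higher and 9 lower (median 0.02), where all tested genes gave 36.4% and 32.6%. Gabarapl1, an autophagosome protein, rose from 2.58, 2.74 and 2.67 to 33.1 and 23.3 CPM (log2FC 3.40, SE 0.16), Lipa, the lysosomal acid lipase, fell from 174, 178 and 186 to 67.9 and 51.8 (log2FC -1.58, SE 0.10), and the cargo receptor Sqstm1 stayed near its naive level (log2FC -0.02, 95% interval -0.16 to 0.11).

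**Figure D5:**
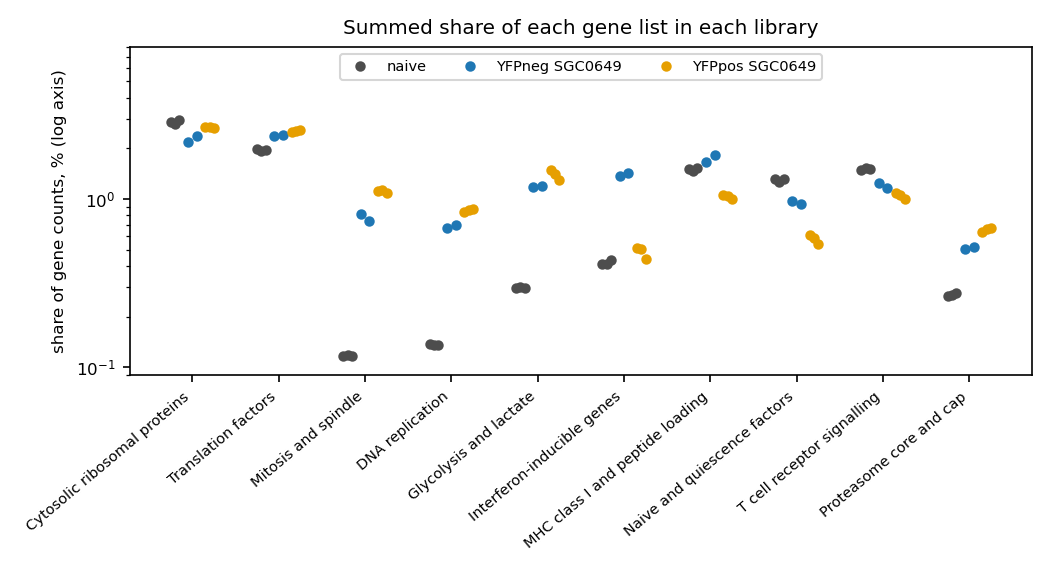
Summed share of all gene counts (percent, log axis) taken by each of 10 gene lists in the naive (grey), YFPneg SGC0649 (blue) and YFPpos SGC0649 (orange) libraries, 1 dot per library. YFPneg dots lie between the other groups for mitosis, replication, naive and receptor signalling genes, and highest for interferon-inducible and MHC class I genes.

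Genes of survival and death rose on both sides of the balance between them, 22 of 34 higher and 8 lower. Without YFPneg replicate 2 the number lower was 4. Pmaip1, the death activator NOXA, had 1.20, 1.93 and 1.64 CPM in naive and 40.7 and 28.3 in YFPneg libraries (log2FC 4.44, SE 0.26). The protective genes Bcl2 (log2FC 0.94, SE 0.06) and Bcl2l1 (log2FC 1.64, SE 0.16), which encodes BCL-XL, rose as well, and Mcl1 fell (log2FC -0.26, SE 0.06). The death receptor Fas rose (log2FC 1.33, SE 0.08) and was higher than in YFPpos cells (YFPneg minus YFPpos 0.66, SE 0.08, adjusted p 5.3e-06), while Cflar, the inhibitor of death receptor signals, fell (log2FC -0.56, SE 0.06).

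Chromatin regulators moved in both directions. Of 41 histone and DNA methylation genes 12 were higher (29.3%) and 18 lower (43.9%), against 36.4% and 32.6% of all tested genes. Dot1l, the target of the active counterpart of SGC0649, had 161, 173 and 167 CPM in naive and 229 and 279.7 in YFPneg libraries (log2FC 0.61, SE 0.07), all YFPneg values above the naive ones. Ezh2, the methyltransferase of polycomb repression, rose from 40.8, 43.2 and 43.6 to 251 and 221 CPM (log2FC 2.47, SE 0.08), and its relative Ezh1 fell from 130.2, 132 and 126 to 63.1 and 65.6 (log2FC -1.004, SE 0.11). Whsc1 (log2FC 3.07, SE 0.07), Suv39h2 (log2FC 3.11, SE 0.16) and the maintenance methyltransferase Dnmt1 (log2FC 1.03, SE 0.06) rose too. The large MLL family methyltransferases fell: Kmt2c from 946, 1054 and 921 to 252 and 269 CPM (log2FC -1.90, SE 0.11), Kmt2d (log2FC -1.496, SE 0.08) and Kmt2a (log2FC -0.65, SE 0.08). Tet1, which starts DNA demethylation, fell from 55.0, 61.5 and 59.0 to 6.71 and 6.01 CPM (log2FC -3.20, SE 0.21) and Tet3 (log2FC -0.77, SE 0.07), whereas Tet2 was not called (log2FC -0.11, adjusted p 0.30). Against YFPpos cells 23 of the 41 were higher and 4 lower, where 21.3% and 23.9% of all tested genes were. Among acetylation genes and readers 9 of 36 rose (25%) and 16 fell (44.4%), beside the same shares over all tested genes. Hat1, which acetylates new histones, rose (log2FC 2.13, SE 0.09), and the chromatin remodelling ATPase Smarca2 (log2FC -1.55, SE 0.07) and Arid1a (log2FC -0.83, SE 0.05) fell. The deacetylase Sirt2 (log2FC 0.01, 95% interval -0.13 to 0.16) and the acetyltransferase Kat7 (log2FC 0.01, -0.14 to 0.16) stayed within 0.3 log2 units.

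Notch pathway genes were lower in 12 and higher in 5 of 20 tested cases. Next to the fall of Dtx1, the protease subunit Psen2 went from 76.1, 75.4 and 82.8 to 23.5 and 24.0 CPM (log2FC -1.72, SE 0.10). The receptor Notch1 rose from 293, 306 and 277 to 467 and 486 CPM (log2FC 0.71, SE 0.06), and Rbpj, the DNA-binding partner of Notch, (log2FC 1.53, SE 0.11). The receptor protease Adam10 stayed near its naive level (log2FC 0.06, 95% interval -0.09 to 0.20).

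In all, 823 of the 12343 genes (6.67%) had a 95% interval of the log2 fold change inside 0.3 either way, and the genes quoted above with such intervals are drawn from them. For the other genes that were not called, the data do not show that levels were equal.

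Markers of other cell types were mostly low in both groups, and their part in the results was not tested. Of 12 B cell markers 5 were tested, and all 12 summed to 2.997 to 3.97 CPM in naive and 4.11 to 4.47 in YFPneg libraries. The defining B cell gene Ms4a1 had 0 counts in all 5 libraries. Of 20 myeloid and dendritic cell markers 14 were tested, 4 were higher and 6 lower (3 lower without naive replicate 1 or naive replicate 3 or with the 1 CPM filter). All 20 summed to 19.4 to 28.6 CPM in naive and 103 to 116 in YFPneg libraries. The higher sum came from Cd74, the class II invariant chain, which rose from 3.30, 2.12 and 4.31 to 76.2 and 93.6 CPM (log2FC 4.70, SE 0.17) and responds to interferon-gamma. The class II chain H2-Ab1 (log2FC 3.95, SE 0.37) and the perforin-like gene Mpeg1 (log2FC 1.99, SE 0.38) rose as well, while the macrophage genes C1qa and C1qb, with 56 and 63 counts in naive libraries, had none in YFPneg libraries. Among these 5 libraries, traces of C1qa and C1qb were thus seen only in naive cells, in a list whose members moved both ways. C1qa was not called with DESeq2 (adjusted p 0.22). Of 11 NK cell markers 7 were tested, 0 rose and 4 fell (2 fell without naive replicate 3 or with the 1 CPM filter). All 11 summed to 197 to 204 CPM in naive and 117 to 139 in YFPneg libraries. Nearly all of that sum was Txk, a kinase that T cells also express, and Ncr1, which defines NK cells, had 9 counts in naive and 0 in YFPneg libraries. Neutrophil (2 of 12 tested), erythroid and platelet (2 of 10) and gamma-delta T cell markers (2 of 8) stayed under 8.17 CPM in sum in every naive and YFPneg library.

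Memory T cell markers, which the enriched starting population could carry into the culture and which activation also induces, rose in 16 of 19 cases and fell in 0 (1 fell in a fit of the 5 libraries alone, with RLE or upper-quartile scaling, with DESeq2 and without a filter). Anxa2, an annexin, had 3.896, 3.86 and 5.39 CPM in naive, 329 and 250 in YFPneg and 754, 632 and 514 in YFPpos libraries (log2FC from naive 6.04, SE 0.20). Lgals1, the lectin galectin-1, had 34.1, 38.7 and 42.9 CPM in naive, 304 and 265 in YFPneg and 767, 632 and 600.4 in YFPpos libraries (log2FC from naive 2.88, SE 0.15). In both genes the YFPneg libraries lay between the other groups. Ly6c1 was higher in YFPneg (314 and 223 CPM) than in naive libraries (112, 96.8 and 118 CPM) and than in YFPpos libraries (195, 129 and 79.9 CPM).

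Genes of the Y chromosome were lower in YFPneg cells. Ddx3y, a Y-linked helicase, had 318, 342 and 281 CPM in naive and 153 and 120.1 in YFPneg libraries (log2FC -1.20, SE 0.12), and Kdm5d, Uty and Eif2s3y fell too, with log2FC values of -1.04, -0.71 and -0.58. In all 4 genes the YFPneg values lay below every naive value, where 80.2% of all tested genes had no overlap in either direction. The labels used here do not give the sex of the mice, so a difference in the share of male mice and a difference in expression cannot be told apart.

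The 2 YFPneg libraries themselves differed by more than 2-fold in 18 of 8824 genes (0.204%), against 2 to 5 genes between pairs of naive libraries. Mid1 was at 8.33 and 47.5 CPM in the first and second YFPneg library, a log2 difference of -2.44, at 16.4, 19.2 and 8.51 CPM in naive libraries and at 8.72, 40.8 and 38.5 CPM in YFPpos libraries. Klrd1, which encodes the NK receptor partner CD94, was at 27.7 and 9.40 CPM in YFPneg libraries, a log2 difference of 1.51, and 31.4, 27.7 and 30.3 in naive libraries. The first YFPneg library was the lower in Mid1, as was the first YFPpos library, and the higher in Klrd1. Rnf157 (90.9 and 44.7 CPM), Cdk5rap1 (17.8 and 35.0 CPM), Lad1 (17.8 and 34.9 CPM) and Ly6c2 (29.9 and 15.3 CPM) were the others with the widest gap among genes at a mean log2 level of at least 4 over the 2 YFPneg libraries. The fit pools the spread of this group with that of the other groups.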

How the data were processed

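RNA sequencing counts per gene of 14 libraries were taken as the authors deposited them: whole-number read counts of protein-coding genes from featureCounts on GRCm38, per the submitters' processing notes, counted on the reverse strand per the file headers. Reads were mapped with an aligner not given in the sources used here. Libraries were grouped by their titles and characteristics. Of 22048 gene IDs, 12343 passed edgeR's filterByExpr and were tested with TMM scaling in 1 quasi-likelihood model of all 14 libraries (R 4.3.3, edgeR 4.0.16), with Benjamini-Hochberg adjustment and a threshold of 0.05. The biological coefficient of variation was 9.12%. Levels are TMM-scaled CPM, with 0.5 CPM added before logs in figures. Folds of genes without naive counts use a floor of 3 counts over the group, and counting intervals (95%) cover counting error only. Alternatives included limma-voom 3.58.1 and DESeq2 1.42.0. The code was tested on simulated data.

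The comparison, the gene lists and their members were chosen with earlier results of these data known. Named genes are the extreme genes of each comparison (15 a direction against naive, 8 against YFPpos cells), and in each list up to 4 with the smallest p, up to 3 against the list's direction and up to 3 within 0.3 log2 units, not all of them printed. Others were chosen after their values were seen, and some genes are not reported here. Promoter sequences (RefSeq, GRCm38.p6) run from 250 bases before to 50 after each start.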

Additional observations from a re-analysis of the deposited data

Results flagged for a closer look

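For 16 genes the difference from naive cells was not the same in the 2 sorts of the control-compound culture, by edgeR's test of YFPneg against YFPpos cells with Benjamini-Hochberg adjustment over all tested genes. They are called genes at a mean log2 level of at least 3 without overlap between the libraries of the sorts, the top 8 in each direction by size, so their size is selected. Because the naive libraries are common to both differences, the value is the log2 difference YFPneg minus YFPpos.

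On the higher side, Pydc4, a pyrin domain gene, stood at 363, 373 and 394 CPM in naive, 74.8 and 94.7 in YFPneg and 1.26, 1.24 and 1.25 in YFPpos libraries (YFPneg minus YFPpos 6.07). Its neighbour in name Pydc3 had 291, 285 and 289 CPM in naive, 56.8 and 75.5 in YFPneg and 1.48, 2.06 and 2.86 in YFPpos libraries (4.95 on the same scale). In both genes YFPpos libraries were the lowest. The difference was 5.30 for Oas2, 4.496 for Ifit3, 4.20 for Ifit1bl1 and 4.02 for Irf7, all antiviral or interferon-related genes. It was 4.32 for the guanylate-binding protein gene Gbp10, at 5.03, 4.98 and 7.09 CPM in naive, 63.5 and 70.2 in YFPneg and 3.25, 4.16 and 2.64 in YFPpos libraries, and 3.74 for Apol7e. Several of these genes have near-identical relatives, so their counts are uncertain.

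On the lower side, the value was -4.45 for Ifng, whose YFP reporter defined the sort, so its direction followed from the sort. Il1rl1, the receptor for IL-33, had 0.240, 0.561 and 0.284 CPM in naive, 1.88 and 2.31 in YFPneg and 28.5, 27.2 and 44.8 in YFPpos libraries (YFPneg minus YFPpos -3.996). Xcl1, a chemokine (YFPneg minus YFPpos -3.92), Batf3 (YFPneg minus YFPpos -3.67) and the cytokine Il24 (YFPneg minus YFPpos -3.50) were low in both naive and YFPneg cells. Xcl1 had 0.120, 0.0623 and 0.227 CPM in naive, 8.53 and 5.76 in YFPneg and 72.2, 77.5 and 174 in YFPpos libraries. The mitochondrial genes mt-Co3 (YFPneg minus YFPpos -4.22) and mt-Co2 (YFPneg minus YFPpos -3.38) and the mitochondrial synthetase gene Lars2 (YFPneg minus YFPpos -3.24) were lower than in both other groups. For mt-Co3 the levels were 40.5, 44.8 and 36.7 CPM in naive, 1.32 and 1.80 in YFPneg and 34.5, 24.3 and 28.5 in YFPpos libraries. For Lars2 they were 1569, 1271 and 1338 CPM in naive, 125 and 69.8 in YFPneg and 1078, 999.5 and 681 in YFPpos libraries. What moves these 3 genes was not tested.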

How the results depend on the processing

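Against naive cells 4494 genes were higher and 4024 lower, and 4240 to 4780 higher and 3682 to 4161 lower under 8 other settings: a fit of 5 libraries, RLE, upper-quartile or no scaling factors, DESeq2, limma-voom, no filter on low counts and a filter of at least 1 CPM. Scaling by library totals gave the highest number of higher genes (4780) and a median log2 fold change of 0.10. Leaving out 1 library at a time gave 4084 to 4209 higher and 3649 to 3769 lower genes. Against YFPpos cells, 2630 genes were higher and 2955 lower, and 2154 to 2445 and 2318 to 2713 with 1 library left out, where a YFPneg group of 1 library is assumed to vary like the other groups. Under the same 8 settings 2576 to 2798 were higher and 2589 to 3147 lower than in YFPpos cells. Higher genes outnumbered lower ones in the fit of the 5 libraries compared (2772 and 2589) and with the 1 CPM filter (2798 and 2643). No called gene changed direction under these settings.

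The replicate numbers in the labels carry no stated pairing, and same-numbered libraries of YFPneg and naive cells deviated with a correlation of 0.0105 over 2 shared numbers, and those of YFPneg and YFPpos cells with 0.176. With a replicate block in the model 4442 genes were higher and 3991 lower than in naive cells, and 2567 and 2869 than in YFPpos cells, and none of these 4 counts moved by more than 1.5 times. Among genes and lists named, the block called Ltb lower (adjusted p 0.016), Klrd1 lower (adjusted p 0.012), Rtp4 higher (adjusted p 0.038) and Cdk5rap1 higher (adjusted p 0.032), and Eef1a1 lost its call (adjusted p 0.086). The number lower became 1 for TNF family ligands and for memory T cell markers and 2 for NK lectin receptors.

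Of 476 gene results checked, 46 changed their call under at least 1 alternative, none changed direction. Counts of the lists described that moved by more than 1.5 times are given beside them or with the block. With 2 YFPneg libraries, the group's own spread rests on 1 pair, and a group without a count, at totals of 16856850 to 19688884 counts a library, allows only a lower bound on a fold.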
